A study of Homo sapiens with 16 samples.

Results

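Rottlerin and colchicine were compared directly, in 4 of the 16 libraries of the series: 2 libraries labelled Rottlerin 1.23 uM and 2 labelled Colchicine 10 nM. The libraries of each compound were taken by treatment label alone. The pair itself was set as 2 compounds that raise CDKN1A, so the level of CDKN1A above DMSO under both is not an independent result. All 16 libraries were total RNA from whole planar cultures of islets differentiated in vitro from HUES08 (HUES8), a human embryonic stem cell line with the genotype given as WT, and all carried the batch label 1. Each compound was added to the medium from stage 5 of the differentiation until 7 days into stage 6. The remaining libraries were 2 with DMSO, the solvent, and 10 with 5 other compounds; they served as background levels and for the estimate of the spread. Each compound was given at a single dose, and the doses differ, so the comparison is of these treatments and not of potency. Separate differentiations are not stated for the 2 libraries of a compound, so every p-value reflects only how these libraries vary, and that variation may be technical.

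Rottlerin is a plant polyphenol best known for inhibiting protein kinase C delta, although it also acts on other kinases, opens large-conductance potassium channels and uncouples mitochondria. Colchicine is a plant alkaloid that binds tubulin, blocks the growth of microtubules and can hold dividing cells in mitosis. CDKN1A encodes p21, which binds and inhibits cyclin-dependent kinases; its transcription is driven by the tumour suppressor p53 after DNA damage and other stresses, and also by other factors. Genes that p53 drives include DNA repair factors such as DDB2 and XPC and regulators of p53 itself such as MDM2. CEBPA is a transcription factor of liver, fat and myeloid cells, and LCT is lactase, an enzyme of the intestinal brush border. Pancreas, liver and gut all come from the endoderm, and differentiated islet cultures can hold cells of those other fates.

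Library totals in the 4 libraries ran from 25875811 to 30590954 reads, and 3 reads corresponded to 0.0990 to 0.117 CPM across them. CPM is a gene's count scaled to a fixed library total, here with TMM factors. The cultures were mixed. The summed level of the endocrine markers CHGA, CHGB, SCG2, INS, GCG and SST was 296 CPM in Rottlerin 1, 46.9 in Rottlerin 2, 246 in Colchicine 1 and 59.2 in Colchicine 2. INS, insulin, stood at 3.46, 0.919, 4.88 and 0.896 CPM, and IAPP and MAFA, further genes of the beta cells that islets are labelled for, did not pass the filter on low counts. The liver markers ALB, AFP, APOA1 and FGB summed to 5696, 9030, 7579 and 5852 CPM. Each compound therefore had 1 endocrine-richer library, the library numbered 1, and 1 endocrine-poorer library. Enterocyte markers (LCT, SI, CDH17 and VIL1) summed to 1030, 1137, 1063 and 980 CPM. Duct markers summed to between 739 and 896 CPM, and mesenchyme markers to between 793 and 1107. The acinar marker CPA1 and the pluripotency markers POU5F1 and NANOG were at or near 0. In bulk RNA, fewer cells of a type and less RNA per cell cannot be told apart.

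No gene separated the compounds at an adjusted p under 0.05 in edgeR's quasi-likelihood test (0 of 24515 tested genes, 0%); the smallest adjusted p was 0.140. At an unadjusted p under 0.05 there were 1057 genes (4.31%), where 1226 would be given by chance alone. Of these, 642 were higher under rottlerin (2.62%) and 415 under colchicine (1.69%). DESeq2's Wald test on the same counts called 24 of 20237 genes (0.119%) at an adjusted p under 0.05, with 21 higher under rottlerin and 3 under colchicine. With no filter on low counts edgeR called 219 of 44689 genes, 162 higher under rottlerin and 57 under colchicine. Single genes are therefore given with their values and are not called changed. The median log2 difference of all tested genes, rottlerin minus colchicine, was 0.01, and 51.4% of genes lay above 0. Against DMSO the same fit called 2 genes under rottlerin (0.00816%) and 48 under colchicine (0.196%). Those comparisons share their DMSO libraries and are used here only to place a level. GC-rich genes also read low in the DMSO libraries. The mean log2 gap between the most GC-rich and the most GC-poor genes was -0.322 and -0.428 there. It was 0.212 and 0.0007 in the rottlerin libraries and 0.0865 and 0.0506 in the colchicine libraries. No GC offset was run for the comparisons with DMSO.

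The 4 genes named for this comparison were chosen with earlier results of these data known, and they differed in opposite directions. CDKN1A and DDB2 were higher under colchicine, and CEBPA and LCT were higher under rottlerin. CDKN1A (chr6:36676460-36687339, GRCh38) stood at 81.3 and 83.5 CPM under rottlerin and at 106 and 114 under colchicine. The DMSO libraries had 53.3 and 47.5 CPM, and the 10 libraries of other compounds lay between 49.4 and 68.3. The groups did not overlap: both rottlerin libraries lay above all 12 of these background libraries, and both colchicine libraries lay above both rottlerin libraries. The log2 difference was -0.42 ± 0.10 (SE), with an unadjusted p of 0.000822 and an adjusted p of 0.638 in edgeR. Against DMSO, CDKN1A was higher under rottlerin (log2 0.71, adjusted p 0.0484 in edgeR) and under colchicine (1.13, adjusted p 0.000297 in edgeR). The pair was set by this property, so these values only place the level.

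DDB2 (chr11:47214465-47239240), which recognises ultraviolet lesions in DNA, stood at 31.9 and 38.5 CPM under rottlerin and at 47.3 and 51.5 under colchicine. Both colchicine libraries lay above every other library of the series, while Rottlerin 1 lay within the range of the DMSO libraries, 29.01 to 32.6 CPM. The log2 difference was -0.49 ± 0.12 (SE; unadjusted p 0.000898, adjusted p 0.651 in edgeR). Against DMSO, DDB2 rose under colchicine (log2 0.68, adjusted p 0.0401); under rottlerin its value was 0.19 (adjusted p 0.484).

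**Figure D1:**
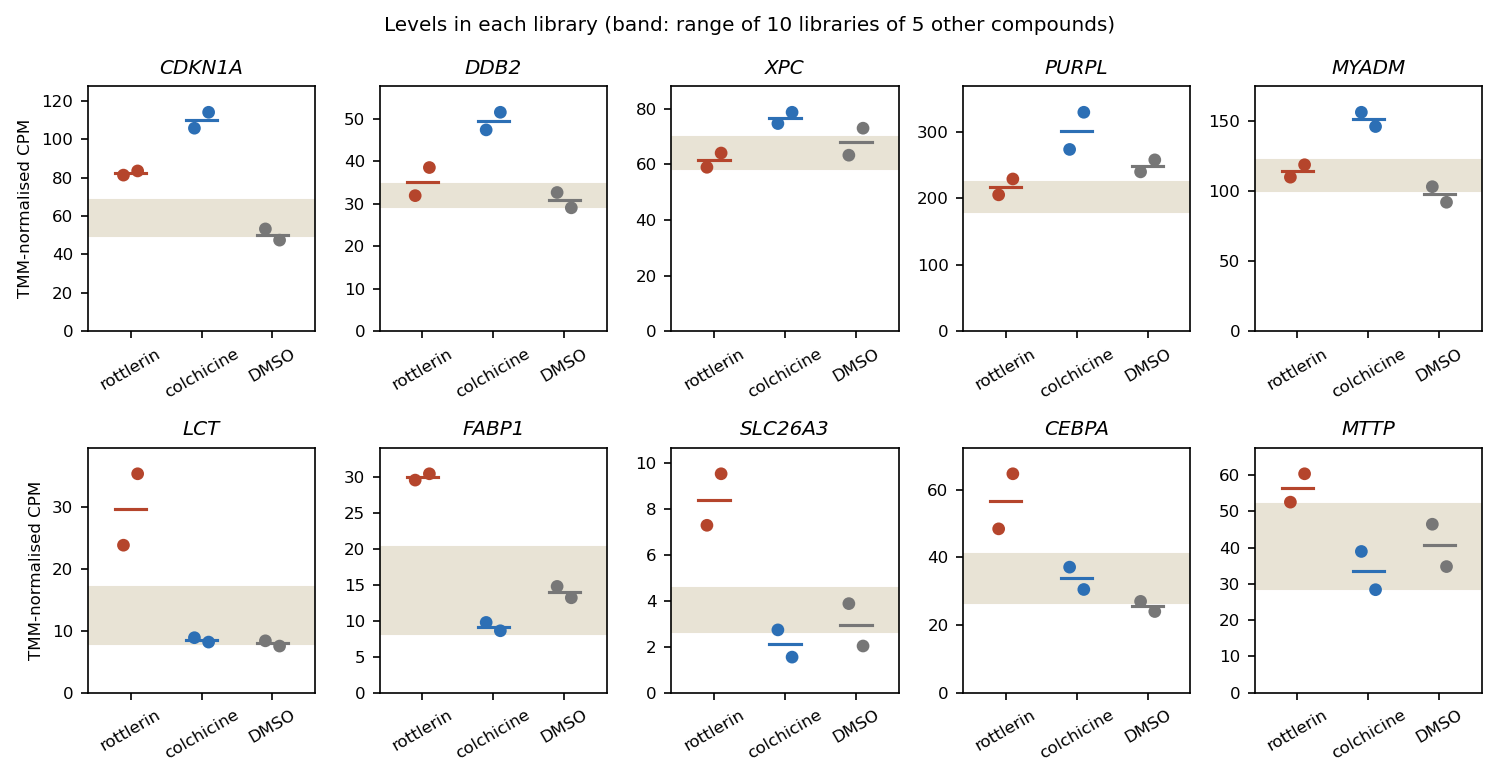
TMM-normalised CPM (vertical axes, linear from 0) of 10 genes in each library of rottlerin, colchicine and DMSO; points are libraries, short lines are means of 2 libraries and the shaded band is the range of the 10 libraries of 5 other compounds. In the upper row both colchicine points lie above both rottlerin points, and in the lower row both rottlerin points lie above both colchicine points.

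The p53 target list as a whole lay lower under rottlerin than under colchicine. This and the other gene lists were chosen with earlier results of these data known, so their counts describe these libraries and test nothing. Of its 30 members, all of which were tested, 27 had a log2 difference below 0 and 3 above 0, with a median of -0.29 and a range from -0.56 to 0.08. At an unadjusted p under 0.05, 11 members were higher under colchicine, where 1.69% of all tested genes were, and none was higher under rottlerin. For 18 members both colchicine libraries lay above both rottlerin libraries (14.8% of all tested genes did), and for none was the reverse true (15.6%). None passed the adjusted threshold in edgeR or in DESeq2. Within the endocrine-richer libraries the median difference was -0.27, and within the endocrine-poorer libraries it was -0.26. Against DMSO the list's median was 0.14 under rottlerin and 0.38 under colchicine. The count of 11 was 6 without Rottlerin 1 and 5 without Colchicine 2.

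The 11 members were spread over several roles. XPC, the lesion sensor of nucleotide excision repair, stood at 59.0 and 64.1 CPM under rottlerin and at 74.7 and 78.8 under colchicine. Its log2 difference was -0.32 ± 0.10 (SE; unadjusted p 0.00473, adjusted p 0.984 in edgeR), and both colchicine libraries lay above the other 14. POLH, the polymerase that copies past ultraviolet lesions, had 17.9 and 20.8 CPM against 21.7 and 30.5. AEN, a nuclease that p53 induces, had 43.5 and 43.9 CPM under rottlerin and 55.6 and 55.2 under colchicine, so the libraries of each compound were nearly equal and did not overlap. For these 3 genes the libraries of colchicine were the higher ones throughout.

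Other members of the 11 were also higher under colchicine. MDM2, the ubiquitin ligase that degrades p53, stood at 291 and 376 CPM under rottlerin and at 386 and 448 under colchicine (log2 -0.32 ± 0.13, SE). EDA2R, a receptor of the tumour necrosis factor family, had the lowest value of the list, -0.56 ± 0.18 (SE), with 14.8 and 17.8 CPM against 20.7 and 27.4. PLK3, a stress-responsive kinase, had 12.4 and 11.5 CPM against 17.9 and 17.0. ZMAT3, an RNA-binding protein, had 86.3 and 111 CPM against 122 and 133. The narrowest gap of these 4 was that of MDM2, where Rottlerin 2 lay just under Colchicine 1. TIGAR, which lowers glycolytic flux, and SPATA18, which acts in mitochondrial quality control, had log2 differences of -0.33 and -0.53. Their libraries did not overlap either.

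BAX, which permeabilises the outer mitochondrial membrane, stood at 50.1 and 57.8 CPM under rottlerin and at 60.3 and 65.5 under colchicine, against 40.4 and 35.7 in DMSO. Both compounds' libraries lay above both DMSO libraries, and the direct difference was -0.22 ± 0.12 (SE; unadjusted p 0.0855). The 3 members above 0 were PPM1D, a phosphatase that shuts the response down (0.08 ± 0.12), TP53I3, a quinone oxidoreductase (0.07 ± 0.15), and CCNG1, cyclin G1 (0.05 ± 0.11); the errors are SE. The libraries of all 3 overlapped. CDKN1A aside, no other inhibitor of cyclin-dependent kinases had an unadjusted p under 0.05 (1 of 7 tested members of that list did, CDKN1A itself, against 4.31% of all tested genes).

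PURPL, a long non-coding RNA that p53 induces and that was not on the list, had the smallest p of all genes higher under colchicine. It stood at 206 and 229 CPM under rottlerin and at 274 and 330 under colchicine, with 240 and 258 in DMSO and 179 to 225 in the other 10 libraries. Both colchicine libraries lay above the other 14, and both rottlerin libraries lay below both DMSO libraries. The log2 difference was -0.47 ± 0.10 (SE; unadjusted p 0.00019, adjusted p 0.488 in edgeR), and DESeq2 gave an adjusted p of 0.0472. The 250 bases before its RefSeq start (GRCh38.p14, chr5:27472042-27472291, plus strand) are shown because they hold a match to the p53 response element, which is built from a pair of decamers; capitals mark the match, 127 to 108 bases before the start.

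PURPL: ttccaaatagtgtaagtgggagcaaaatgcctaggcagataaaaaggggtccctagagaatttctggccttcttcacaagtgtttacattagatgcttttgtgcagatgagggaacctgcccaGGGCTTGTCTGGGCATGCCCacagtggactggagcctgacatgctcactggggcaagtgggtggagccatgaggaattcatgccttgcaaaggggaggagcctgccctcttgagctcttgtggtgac

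The element, searched without a gap between its decamers, was found in 6 of 35116 RefSeq promoter windows of the same length (0.0171%). Among the 25 p53 targets with a window in that table, 0 held the whole element and 3 held a single decamer, against 5.57% of all windows. A match describes these letters only.

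Of the other genes chosen by smallest p among those higher under colchicine, MYADM, a membrane protein known from myeloid cells, stood at 110 and 119 CPM under rottlerin and at 156 and 146 under colchicine. Both colchicine libraries lay above the other 14, whose highest was 123 CPM, and the log2 difference was -0.40 ± 0.08 (SE; adjusted p 0.488 in edgeR and 0.0494 in DESeq2). FGG, the gamma chain of fibrinogen, stood at 262 and 189 CPM against 314 and 422. CTNNA3, an alpha catenin, had 23.2 and 18.9 CPM against 31.7 and 42.2. The rule that chose these genes required that the libraries of the compounds not overlap, so their separation is not a result. FABP5, a fatty acid binding protein, SH3KBP1, an adaptor protein, OTX2, a homeobox factor, and RPS12P5 had log2 differences of -0.67, -0.49, -1.89 and -1.22. RPS12P5 is a processed pseudogene, and reads could be shared with its parent gene, so its value is uncertain; OTX2 rested on 11 to 55 reads per library.

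Several enterocyte genes were higher under rottlerin, although the summed enterocyte markers overlapped between the compounds. LCT (chr2:135787840-135837180) stood at 23.8 and 35.3 CPM under rottlerin and at 8.87 and 8.16 under colchicine. The DMSO libraries had 8.37 and 7.52 CPM and the other 10 libraries 7.91 to 17.1. Both rottlerin libraries lay above the other 14, and the colchicine libraries lay among the lowest. The log2 difference was 1.79 ± 0.30 (SE; unadjusted p 5.09e-05, adjusted p 0.312 in edgeR), and DESeq2 gave an adjusted p of 5.85e-06. With the endocrine score, the mean log2 CPM of the secretory granule list, as a covariate, LCT was the single gene to pass in edgeR (1.73, adjusted p 0.0431).

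FABP1, the fatty acid binding protein of liver and intestine, had the smallest p of all genes. It stood at 29.6 and 30.4 CPM under rottlerin, at 9.77 and 8.61 under colchicine, at 14.8 and 13.2 in DMSO and at 8.23 to 20.3 in the other 10 libraries. The rottlerin libraries were nearly equal and lay above the other 14, and the colchicine libraries lay below both DMSO libraries. The log2 difference was 1.71 ± 0.25 (SE; unadjusted p 7.44e-06, adjusted p 0.140 in edgeR and 3.46e-07 in DESeq2). SLC26A3, the chloride and bicarbonate exchanger of the gut surface, stood at 7.29 and 9.54 CPM against 2.74 and 1.55, with 2.63 to 4.54 in the other 10 libraries. Again both rottlerin libraries lay above the other 14; the log2 difference was 1.98 ± 0.34 (SE; adjusted p 0.269 in edgeR and 8.33e-05 in DESeq2).

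The 250 bases before the RefSeq starts of FABP1 (GRCh38.p14, chr2:88128063-88128312, minus strand) and SLC26A3 (chr7:107803224-107803473, minus strand) are shown as examples. Both genes were among those of smallest p on the rottlerin side, and their windows hold motifs of gut and liver factors. The window of GNRH2, which had a smaller p than SLC26A3 in edgeR, is not shown. Capitals mark matches, on either strand, to GTTAAT, a core of the HNF1 site, to TTTATNG, a core of the CDX site, and to TTGCNNAA, the core of the C/EBP site that CEBPA belongs to.

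FABP1: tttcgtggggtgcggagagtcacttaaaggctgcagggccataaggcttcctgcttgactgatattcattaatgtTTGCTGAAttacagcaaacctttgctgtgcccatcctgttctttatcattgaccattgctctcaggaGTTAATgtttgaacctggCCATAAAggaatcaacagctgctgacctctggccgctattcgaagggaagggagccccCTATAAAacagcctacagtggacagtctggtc

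SLC26A3: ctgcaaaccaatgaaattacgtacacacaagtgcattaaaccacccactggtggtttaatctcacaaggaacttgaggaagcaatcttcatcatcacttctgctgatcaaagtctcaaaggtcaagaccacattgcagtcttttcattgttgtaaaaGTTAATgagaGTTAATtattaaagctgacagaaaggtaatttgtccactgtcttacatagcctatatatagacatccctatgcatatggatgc

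In FABP1, GTTAAT lay 108 to 103 bases before the start, TTTATNG at 90 to 84 and at 32 to 26, and TTGCNNAA at 175 to 168. The match nearest the start overlaps a TATA box sequence. In SLC26A3, GTTAAT lay at 93 to 88 and at 83 to 78. Of all 35116 windows of this length, 6.23% held GTTAAT, 0.421% held it in 2 or more places, 8.93% held TTTATNG and 9.05% held TTGCNNAA. Among the 16 enterocyte list genes with a window, 6 held GTTAAT, 5 held TTTATNG and 2 held TTGCNNAA. These are letter matches, not measured sites.

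The enterocyte list, too, was chosen with earlier results of these data known. Of its 22 genes, 21 were tested. Among these, 20 had a log2 difference above 0 and 1 below 0, with a median of 0.35. At an unadjusted p under 0.05, 6 were higher under rottlerin, against 2.62% of all tested genes, and 0 under colchicine. For 11 members both rottlerin libraries lay above both colchicine libraries, where 15.6% of all genes did. None passed the adjusted threshold in edgeR, and FABP1 and LCT passed it in DESeq2. The list's median was 0.22 between the endocrine-richer libraries and 0.71 between the endocrine-poorer ones. Against DMSO it was 0.52 under rottlerin and 0.10 under colchicine.

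The members with the clearest separation act in fat and nutrient handling. MTTP, which loads lipid onto nascent lipoproteins, stood at 52.5 and 60.3 CPM under rottlerin and at 38.9 and 28.4 under colchicine (log2 0.75 ± 0.19, SE). RBP2, which binds retinol in absorptive cells, had 3.43 and 1.80 CPM against 0.391 and 0.896. SLC15A1, the peptide transporter, had 46.4 and 45.3 CPM against 36.3 and 19.9. In each of these the rottlerin libraries were the higher ones, and for SLC15A1 most of the gap came from Colchicine 2. FABP2, the intestinal fatty acid binding protein, had 1.06 and 0.919 CPM against 0.195 and 0.0345, the last below the 3-read floor. The other 15 tested members had log2 differences from -0.17 to 1.61, and for 5 of them both rottlerin libraries lay above both colchicine libraries. The lowest was SI, sucrase-isomaltase, at -0.17 ± 0.16 (SE). Its libraries overlapped, and all 4 lay below both DMSO libraries. The abundant members CDH17 and VIL1 overlapped too. CDH17 stood at 595 and 685 CPM under rottlerin against 627 and 569 under colchicine, and VIL1 at 272 and 322 against 303 and 263.

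CEBPA (chr19:33299934-33302564) stood at 48.4 and 64.7 CPM under rottlerin and at 37.1 and 30.5 under colchicine, with 27.0 and 24.0 in DMSO and 26.4 to 41.0 in the other 10 libraries. Both rottlerin libraries lay above the other 14, and the colchicine libraries lay within the range of the other compounds. The log2 difference was 0.74 ± 0.15 (SE; unadjusted p 0.000131, adjusted p 0.488 in edgeR and 0.0184 in DESeq2). Against DMSO, CEBPA was higher under rottlerin (log2 1.15, adjusted p 0.0295 in edgeR), and under colchicine its value was 0.41 (adjusted p 0.167 in edgeR). CEBPA has 65.9% GC, and the part of the low reading of GC-rich genes in DMSO was not tested. Of the 22 liver and gut transcription factors tested, 2 had an unadjusted p under 0.05, CEBPA and NR1H4, the bile acid receptor (1.57 ± 0.65, SE), both higher under rottlerin, as were 2.62% of all tested genes. NR1H4 rested on low levels, 2.67 and 2.25 CPM against 1.25 and 0.413. The median of these factors was -0.27 between the endocrine-richer libraries and 0.50 between the endocrine-poorer ones, so the list had opposite signs in the 2 pairs. PROX1, a factor of the hepatic lineage, showed this: 108 and 178 CPM under rottlerin against 118 and 73.0 under colchicine.

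Secreted liver proteins divided between the compounds. Of 19 tested, 12 lay above 0 and 7 below, with a median of 0.08. APOC3, an apolipoprotein, stood at 10.4 and 7.83 CPM under rottlerin against 5.78 and 2.51 (log2 1.14 ± 0.32, SE), and ALB, albumin, at 56.4 and 101 against 51.9 and 49.7 (0.63 ± 0.28, SE). FGG went the other way, as given above. AFP, the fetal albumin homologue, stood at 4071 and 6982 CPM against 5382 and 3894, and its libraries overlapped. The high value of AFP and of ALB was in Rottlerin 2 each time, the library with the lowest endocrine score of the 4; the part of this in the differences was not tested.

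**Figure D2:**
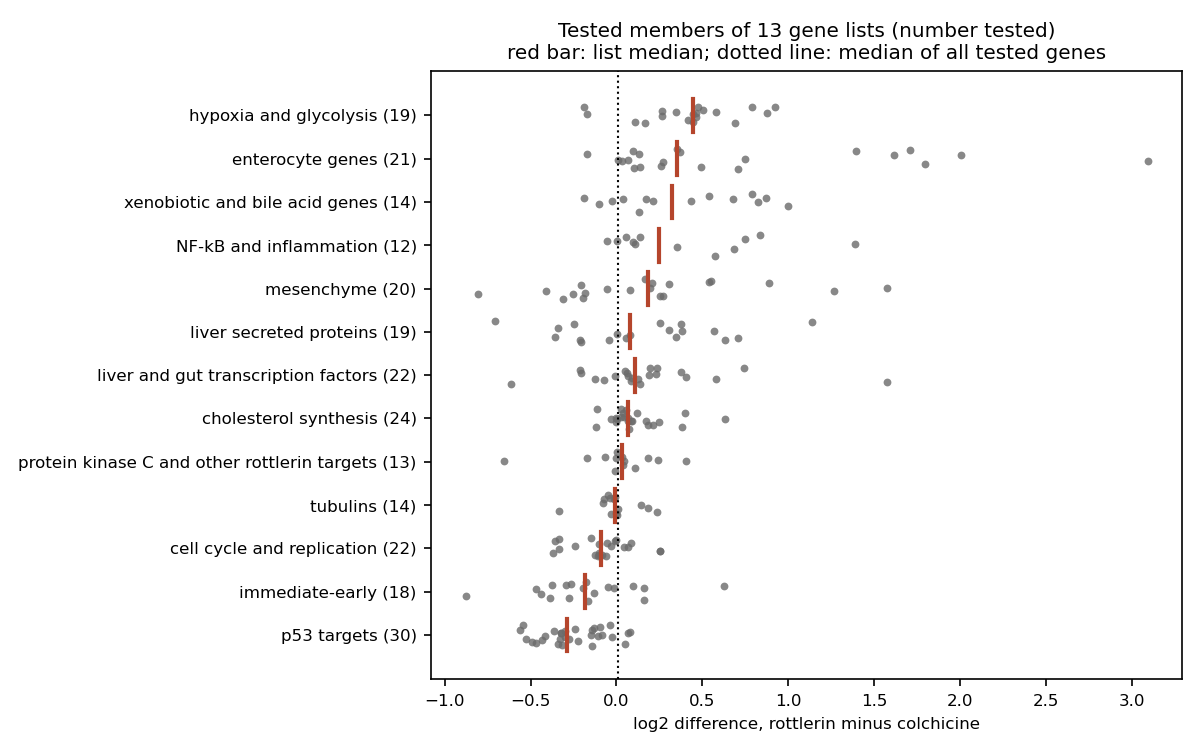
Log2 differences, rottlerin minus colchicine (horizontal axis), of the tested members of 13 gene lists; each grey point is a gene, red bars are list medians and the dotted line is the median of all tested genes, 0.01. The p53 targets lie mostly left of 0 with a median of -0.29, and the enterocyte and the hypoxia and glycolysis genes mostly right of it with medians of 0.35 and 0.45.

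Genes of glycolysis and of the response to low oxygen were higher under rottlerin, but the size of this depended on the library. Of 19 tested members, 17 lay above 0 and 2 below, with a median of 0.45. At an unadjusted p under 0.05, 7 were higher under rottlerin, against 2.62% of all tested genes, and for 12 both rottlerin libraries lay above both colchicine libraries (15.6% of all genes). None passed the adjusted threshold in either tool. The median difference was 0.16 between the endocrine-richer libraries and 0.62 between the endocrine-poorer ones. Against DMSO the list's median was -0.12 under rottlerin and -0.57 under colchicine, so the colchicine libraries were the ones farther from DMSO. The count of 7 was 0 without Rottlerin 2, 1 without Colchicine 2 and 12 without Rottlerin 1.

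GPI, the isomerase of early glycolysis, had the smallest p of the list. It stood at 131 and 155 CPM under rottlerin, 102 and 106 under colchicine and 144 and 167 in DMSO. Both colchicine libraries lay below all the others named, and the log2 difference was 0.46 ± 0.15 (SE; unadjusted p 0.00736, adjusted p 1.00 in edgeR). PGK1, phosphoglycerate kinase, stood at 277 and 365 CPM against 232 and 220, with 364 and 421 in DMSO. LDHA, lactate dehydrogenase, stood at 471 and 732 CPM against 393 and 352, with 711 and 859 in DMSO. VEGFA, the vascular growth factor, stood at 283 and 385 CPM against 273 and 173. In PGK1, LDHA and VEGFA the gap between Rottlerin 2 and Colchicine 2 was wider than that between Rottlerin 1 and Colchicine 1.

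NDRG1, a gene induced by low oxygen, also showed a split between the pairs: 302 and 580 CPM under rottlerin against 270 and 210 under colchicine. Its log2 difference was 0.16 between the endocrine-richer libraries and 1.46 between the endocrine-poorer ones. ALDOC, the aldolase of brain, was not on the list but was among the 10 genes with the smallest p on the rottlerin side, at 16.8 and 19.9 CPM against 10.6 and 8.47. It was 14.8 and 21.5 CPM in DMSO, so it was the colchicine libraries that stood apart (log2 0.94 ± 0.21, SE; adjusted p 0.0365 in DESeq2). The 2 members below 0 were HK1, a hexokinase (-0.19 ± 0.14), and ADM, adrenomedullin (-0.17 ± 0.22), with SE; their libraries overlapped.

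**Figure D3:**
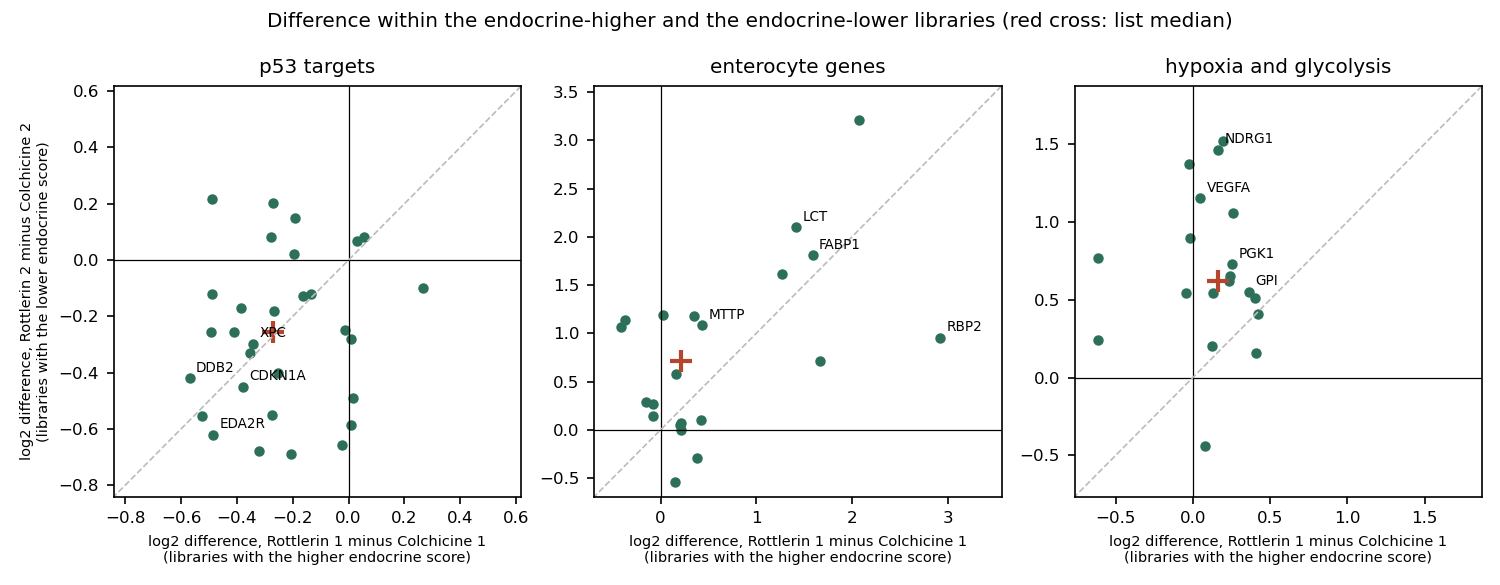
Log2 difference between the endocrine-poorer libraries (Rottlerin 2 minus Colchicine 2, vertical axis) against that between the endocrine-richer libraries (Rottlerin 1 minus Colchicine 1, horizontal axis) for members of 3 lists; points are genes, red crosses list medians, the dashed line marks equal differences, and each panel has its own axis range. The p53 targets have medians of -0.27 and -0.26 and the enterocyte genes 0.22 and 0.71, and the hypoxia and glycolysis genes lie mostly above the line with medians of 0.16 and 0.62.

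Lipid genes differed in a few members. Of 24 cholesterol synthesis and uptake genes, 3 had an unadjusted p under 0.05, all higher under rottlerin (2.62% of all tested genes). For 8 members both rottlerin libraries were the higher ones (15.6% of all genes), and for 2 both colchicine libraries were (14.8%). INSIG1, which holds the sterol sensor in the endoplasmic reticulum, stood at 98.7 and 102 CPM under rottlerin and at 82.5 and 69.3 under colchicine. DHCR7, the last enzyme of cholesterol synthesis, stood at 113 and 116 CPM against 89.8 and 85.4. Their libraries did not overlap, and the log2 differences were 0.40 and 0.38. The list's median was 0.07. PLIN2, the coat protein of lipid droplets, stood at 67.7 and 85.5 CPM against 45.6 and 27.5 (log2 1.07 ± 0.28, SE; adjusted p 0.981 in edgeR and 0.0365 in DESeq2). It was the 1 of 18 fatty acid synthesis and storage genes with an unadjusted p under 0.05, where 4.31% of all tested genes had one in either direction, and the list's median was 0.01.

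The lists of connective tissue and bone showed no single direction, and single members differed both ways. LAMA4, a laminin chain of vessels and mesenchyme, stood at 2.54 and 2.79 CPM under rottlerin, at 0.625 and 0.655 under colchicine and at 5.54 and 6.64 in DMSO. RUNX2, the regulator of bone formation, stood at 4.59 and 4.29, at 1.76 and 1.76, and at 6.15 and 5.33 CPM in the same order. TWIST1, a mesenchymal transcription factor, stood at 7.79 and 9.54, at 2.97 and 2.83, and at 15.2 and 12.3 CPM. None of the 3 groups overlapped in these genes. The direct log2 differences were 2.05 ± 0.48 for LAMA4, 1.33 ± 0.30 for RUNX2 and 1.58 ± 0.70 for TWIST1 (SE). DESeq2 gave adjusted p-values of 0.0365 for LAMA4 and 0.0472 for RUNX2, and edgeR gave 0.623 and 0.591.

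Against DMSO in edgeR, LAMA4 fell under colchicine by 3.24 on the log2 scale and RUNX2 fell by 1.70 (adjusted p 0.0401 for each). SGCD, a sarcoglycan of muscle, was 6.04 and 6.71 CPM under rottlerin and 4.30 and 2.62 under colchicine, and it also fell against DMSO under colchicine, by 1.68 (adjusted p 0.0401). Of 20 mesenchyme members 12 lay above 0 and 8 below, with a median of 0.18; at an unadjusted p under 0.05, 2 were higher under rottlerin (2.62% of all tested genes) and 0 under colchicine (1.69%). Of 18 genes of laminins and basement membrane 7 lay above 0 and 11 below, with a median of -0.03; at that p 2 were higher under rottlerin and 1, LAMA3, under colchicine (-0.32 ± 0.14, SE). Of 10 tested skeletal and cartilage genes 5 lay on each side of 0, with a median of -0.03; RUNX2 was higher under rottlerin and COL2A1 under colchicine at that p. Within the mesenchyme list DCN, the proteoglycan decorin, was lower under rottlerin, at 12.6 and 16.5 CPM under rottlerin and 28.8 and 22.2 under colchicine. COL2A1, the collagen of cartilage, was 752 and 895 CPM against 1009 and 958, and the direct difference was -0.26 ± 0.10 (SE). The DMSO libraries had 564 and 542 CPM, below all 10 libraries of other compounds (589 to 993 CPM). Against DMSO in edgeR, COL2A1 was higher under colchicine (log2 0.83, adjusted p 0.00993), and under rottlerin its value was 0.57 (adjusted p 0.0591). It has 62.3% GC, and the part of the low reading of GC-rich genes in DMSO was not tested. The summed mesenchyme markers COL1A1, COL3A1, POSTN and LUM were 984 and 793 CPM under rottlerin, 957 and 1107 under colchicine, and 1517 and 1400 in DMSO; the part of cell composition in these differences was not tested.

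**Figure D4:**
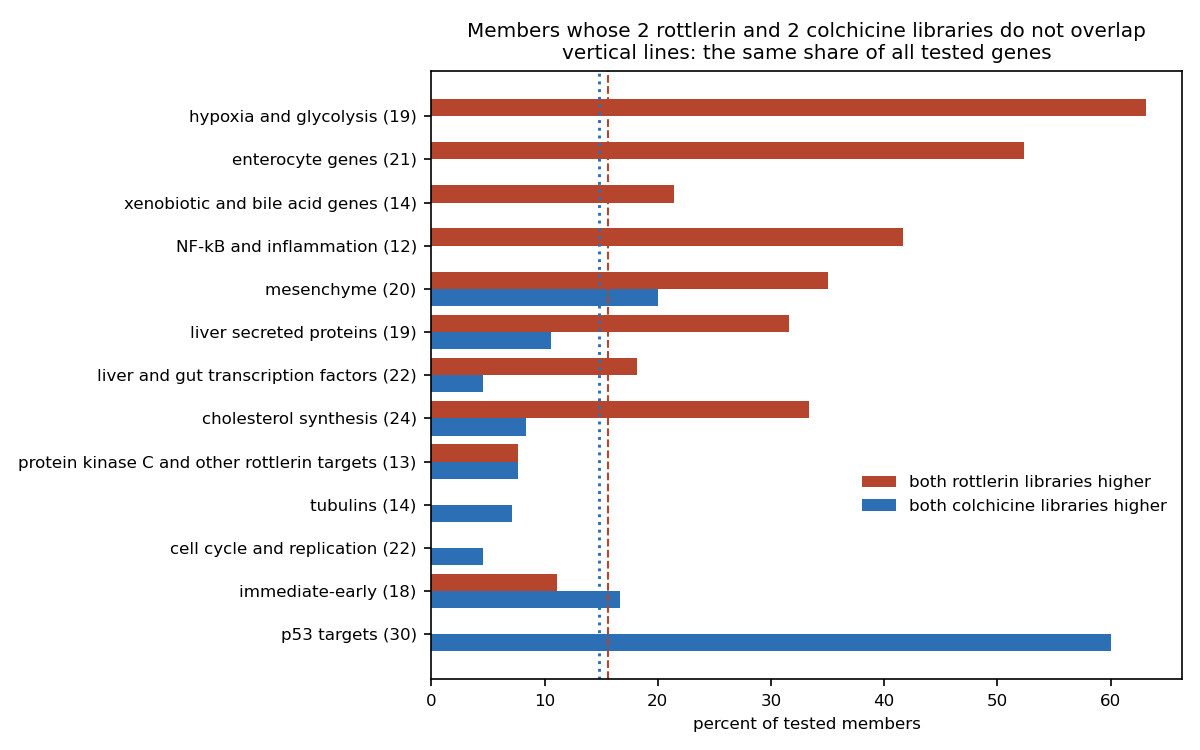
Share of tested members (percent, horizontal axis) of 13 lists for which both rottlerin libraries lie above both colchicine libraries (red bars) or both colchicine libraries above both rottlerin libraries (blue bars); the dashed and dotted vertical lines are the same shares of all tested genes, 15.6% and 14.8%. The p53 targets have blue bars only (18 of 30), and the enterocyte (11 of 21) and hypoxia and glycolysis genes (12 of 19) red bars only.

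Inflammatory and interferon genes divided between the compounds. Of 12 tested NF-kB and inflammation genes, 11 lay above 0, 3 had an unadjusted p under 0.05 with rottlerin higher (2.62% of all genes), and the median was 0.25. CCL20, a chemokine, stood at 4.29 and 5.75 CPM under rottlerin against 2.46 and 1.38 (log2 1.39 ± 0.42, SE), with 5.45 and 3.72 in DMSO. The other members at that p, CXCL1 and ICAM1, overlapped between the compounds. CXCL1 stood at 5.1 and 9.7 CPM against 5.2 and 3.1, and ICAM1 at 5.5 and 9.0 against 5.8 and 2.8. Among 16 interferon response genes, 5 lay above 0 and 11 below, with a median of -0.23. At an unadjusted p under 0.05, 4 were higher under rottlerin (2.62% of all genes) and 2 under colchicine (1.69%). OAS1, a sensor of double-stranded RNA, stood at 11.4 and 9.67 CPM under rottlerin against 7.82 and 3.69 under colchicine. MX1, an antiviral GTPase, went the other way, at 15.6 and 14.2 CPM against 25.3 and 20.5, as did IFIT1, at 0.363 and 0.238 against 1.21 and 1.07. None of these 3 genes overlapped between the compounds.

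Immediate-early genes respond within minutes to growth factors and stress. Of 18 members, 14 lay lower under rottlerin than under colchicine, with 3 at an unadjusted p under 0.05 in edgeR (1.69% of all genes). ATF3, a stress-induced transcription factor, stood at 90.6 and 80.2 CPM against 103 and 129, and FOSB, a subunit of AP-1, at 288 and 157 against 318 and 501. FOS, another subunit, had 384 and 270 CPM against 382 and 525. The 10 libraries of other compounds had ATF3 at 65.8 to 88.1 CPM and FOSB at 174 to 266.5, below both colchicine libraries. For FOS, 8 of these 10 lay below both colchicine libraries. The DMSO libraries had ATF3 at 122.5 and 114.5 CPM and FOSB at 355 and 383.5. For these genes the colchicine and DMSO libraries were thus mostly the high ones. The median of the list was 0.16 between the endocrine-richer libraries and -0.53 between the endocrine-poorer ones, so the pairs had opposite signs. ATF3, FOSB and FOS were lowest in Rottlerin 2 and highest in Colchicine 2, whereas DUSP1 and IER3 were lowest in Rottlerin 1 and highest in Colchicine 1. Against DMSO the list's median was -0.18 under rottlerin and 0.02 under colchicine.

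Genes of the compounds' own targets were also compared. None of 14 tubulin genes and none of 13 genes listed as rottlerin targets had an unadjusted p under 0.05, and both medians were near 0 (-0.01 and 0.03). TUBB, the main beta tubulin, stood at 921 and 1019 CPM under rottlerin and at 944 and 994 under colchicine, a log2 difference of 0.00 ± 0.08 (SE). TUBB4A, at 27.2 and 26.7 CPM against 36.1 and 32.0, was the 1 tubulin whose libraries did not overlap (14.8% of all genes were higher under colchicine in this way). It had the lowest tubulin value, -0.34 ± 0.23, and the highest was TUBB3 at 0.24 ± 0.16 (SE). Against DMSO the median of the tubulin list was 0.29 under rottlerin and 0.35 under colchicine. PRKCD, the kinase that rottlerin is best known to inhibit, stood at 43.5 and 44.8 CPM against 48.1 and 37.8, and its libraries overlapped. KCNMA1, the pore of the large-conductance potassium channel, stood at 48.9 and 35.9 CPM against 62.4 and 70.9 (log2 -0.65 ± 0.34, SE; unadjusted p 0.0848). It was the rottlerin target with the largest difference, and its 4 libraries did not overlap. PRKCE, another protein kinase C, did not overlap either, with rottlerin higher, at 14.9 and 14 CPM against 11.3 and 13.1 (15.6% of all genes were higher under rottlerin in this way). Tubulin genes are close copies of each other, and reads could be split between them.

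**Figure D5:**
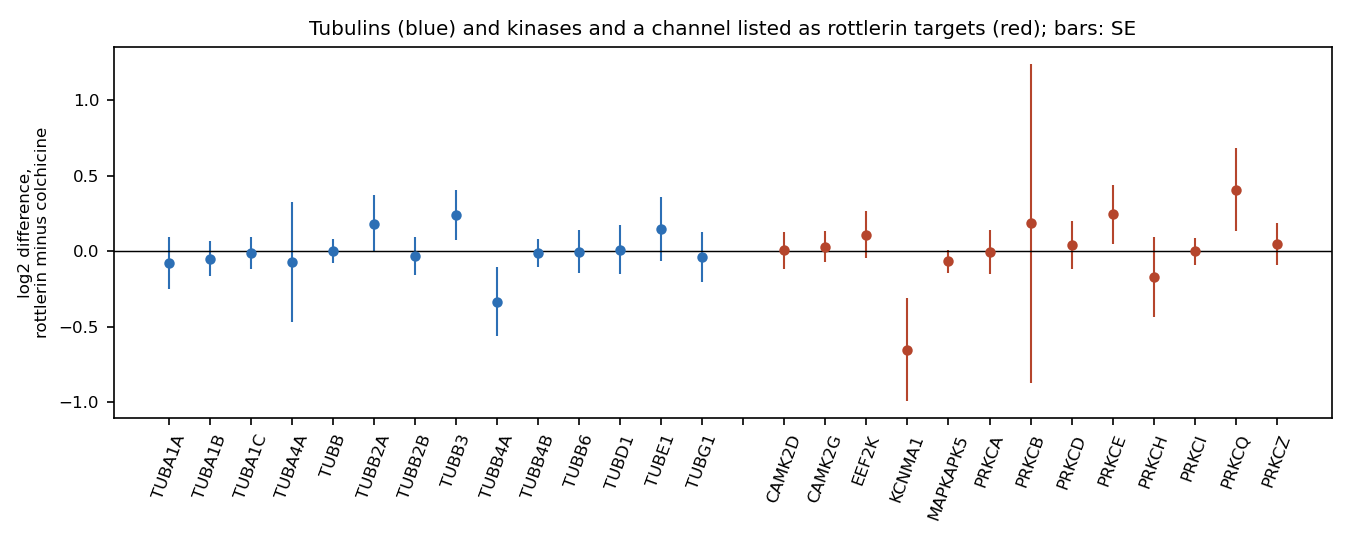
Log2 difference, rottlerin minus colchicine (vertical axis), of 14 tubulin genes (blue) and 13 genes listed as targets of rottlerin (red); points are edgeR estimates and bars are SE. Most points lie near 0, KCNMA1 lies lowest at -0.65, and the bar of the sparsely read PRKCB is wide.

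Cell cycle genes were compared in 2 lists. Of 22 cell cycle and replication genes, 1 had an unadjusted p under 0.05 (4.31% of all tested genes), and the median was -0.09; of 18 mitotic spindle and checkpoint genes, 0 did, and the median was -0.12. The medians had opposite signs in the library pairs: 0.32 and -0.44 for the cell cycle, and 0.46 and -0.60 for the mitotic genes, with the endocrine-richer pair first. The 1 cell cycle gene was CCND2, cyclin D2, at 426 and 377 CPM under rottlerin against 547 and 463 under colchicine, without overlap. CHGA, the granule protein chromogranin A, stood at 222 and 32.9 CPM under rottlerin and at 170 and 39.3 under colchicine. None of 15 secretory granule genes and none of 15 beta cell identity genes had an unadjusted p under 0.05. The median SE of these lists was 1.13 and 1.04, against 0.28 over all tested genes. The counts therefore cannot show that these genes were alike under the compounds.

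Other genes chosen by smallest p on the rottlerin side, under the same rule of no overlap, were GNRH2, AADACL3, CADM2 and LINC02518. GNRH2, a form of gonadotropin-releasing hormone, stood at 18.0 and 14.4 CPM under rottlerin, 5.39 and 5.99 under colchicine and 15.1 and 9.36 in DMSO. The colchicine libraries lay below all 14 others, while the rottlerin libraries lay near DMSO. AADACL3 was different, with 2.74 and 6.10 CPM under rottlerin above the other 14 libraries and 1.17 and 0.655 under colchicine. CADM2, a cell adhesion molecule, had 5.18 and 4.46 CPM against 1.84 and 1.79. LINC02518, a long non-coding RNA, had 16 and 55 reads under rottlerin and 1 and 1 under colchicine, below the 3-read floor, so no fold is given.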

How the data were processed

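Total RNA of 16 libraries was depleted of ribosomal RNA and sequenced from both ends, per the labels' protocols. The authors deposited raw read counts for each gene, without normalisation; the submitters' processing notes name HTSeq and GRCh38, and the labels' protocols name STAR 2.7.1a and featureCounts 1.6.0 or HTSeq. The annotation release, strand setting and rule for multiply mapped reads are not given in the sources used here, so overlapping, antisense and near-identical genes are uncertain.

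edgeR 4.0.16 was run in R 4.3.3 on the counts. filterByExpr on the 8 groups kept 24515 of 62754 genes (99.92% of reads), with TMM scaling. The model held all 16 libraries and a coefficient for each group (8 residual degrees of freedom, common biological coefficient of variation 0.1652). The contrast rottlerin minus colchicine was tested two-sided by the robust quasi-likelihood F test, with Benjamini and Hochberg adjustment over all tested genes and a threshold of 0.05; DESeq2 1.42.0 was an alternative. SE are on the log2 scale. The fit was tested on simulated data. Totals ran from 25875811 to 30590954 reads in the 4 libraries; the floor of 3 reads covers counting error only, since reads are not independent molecules.

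The rule named the 4 genes CDKN1A, DDB2, CEBPA and LCT; in each direction up to 10 genes of smallest p with at least 1 CPM, a symbol and no overlap between the compounds; the 3 members of smallest p per list; tubulins and rottlerin targets; and CHGA, INS, ALB and AFP. Other list members were chosen after their values were seen, and the genes and the 37 lists were chosen with earlier results of these data known. Some items under the rule are not reported in this text. Gene positions come from GENCODE 29 and promoter windows from RefSeq. Alternatives were RLE size factors, no filter, 4 libraries alone, each library left out, the replicate number as a block, a GC offset, the endocrine score as a covariate, and DESeq2.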

Additional observations from a re-analysis of the deposited data

How the results depend on the processing

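With 2 libraries per group, every test rests on a spread estimated over all 8 groups, and a fit without 1 library assumes that the lone library varies like the other groups. No gene passed in edgeR with RLE size factors, in the 4 libraries alone, with the replicate block, with the GC offset or with both. The count was 0 to 1 when 1 library was left out (MUC19, -1.31, adjusted p 0.0204, without Colchicine 1), 1 with the endocrine score as covariate (LCT), 24 in DESeq2 and 219 with no filter on low counts (162 higher under rottlerin and 57 under colchicine). Of these 219 genes, 218 were also tested in the filtered fit; the standard error of NDRG1 was 0.289 with the filter and 0.102 without it. Genes with an unadjusted p under 0.05 numbered 1057, 1925 with no filter, and 858 to 1615 when 1 library was left out.

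When 1 library was left out, the counts of members with an unadjusted p under 0.05 ran from 5 to 14 for the p53 targets, from 4 to 9 for the enterocyte genes and from 0 to 12 for the hypoxia and glycolysis genes; with no filter the last was 13. The cause was not tested. Across all tested genes, the deviations of Rottlerin 1 and Colchicine 1 from their group means had a correlation of -0.063. This value cannot show whether the library numbers share anything, since the summed endocrine markers were higher in library 1 of both compounds. The replicate block, with 956 genes at an unadjusted p under 0.05 in edgeR, changed no call. List medians stayed within the spread between libraries for all 37 lists in edgeR with RLE size factors, no filter, the 4 libraries alone, the replicate block, the GC offset, both, and the endocrine score; DESeq2 was not run for them. Of the 37 lists, 7 to 9 moved beyond it when 1 library was left out.

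Of 81 genes given with values, 15 passed the threshold in DESeq2 and 38 with no filter, all in the same direction. Signs that turned belonged to genes near 0 or with a wide spread. TUBB was -0.00952 with no filter, -0.00939 in the 4 libraries alone and -0.0014 with the endocrine score. Over fits without 1 library, log2 differences ran from -0.0814 to 0.0709 for TUBB, -0.0207 to 0.18 for PPM1D, -0.0553 to 0.17 for TP53I3, -0.0242 to 0.11 for CCNG1, -0.47 to 0.0645 for SI, -0.20 to 0.59 for AFP, -0.46 to 0.0648 for ADM, -0.12 to 0.52 for TUBB3, -0.13 to 0.22 for PRKCD, -1.67 to 1.69 for CHGA and -1.64 to 1.29 for INS.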

Other observations

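Genes of drug metabolism and of the duct also differed between the compounds in single members. Of 14 tested xenobiotic and bile acid genes, 11 lay above 0, with a median of 0.32, and 3 had an unadjusted p under 0.05 with rottlerin higher (2.62% of all tested genes). CYP1A1, the enzyme induced through the aryl hydrocarbon receptor, stood at 5.91 and 4.56 CPM under rottlerin, 3.40 and 2.34 under colchicine and 2.05 and 0.652 in DMSO, so the 3 groups did not overlap. CYP3A5, a drug-oxidising enzyme, stood at 15.1 and 13.6 CPM against 10.4 and 10.8, and CYP27A1, which makes bile acids, at 7.88 and 12.3 against 8.17 and 5.75. The libraries of CYP27A1 overlapped.

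Among 13 duct and pancreatic progenitor genes, AQP1, a water channel, stood at 3.33 and 3.44 CPM under rottlerin against 1.76 and 1.03 under colchicine. SPP1, osteopontin, went the other way, at 13.3 and 14.1 CPM against 23.02 and 37.4 (log2 -1.14 ± 0.30, SE; adjusted p 0.915 in edgeR and 0.0494 in DESeq2). CFTR, the chloride channel of duct cells, stood at 222 and 215 CPM against 296 and 328. Neither compound's libraries overlapped the other's in these 3 genes, and the summed duct markers KRT19, SOX9 and CFTR were 793 and 739 CPM under rottlerin and 852 and 896 under colchicine. Of 13 mitochondrially encoded genes, 12 lay below 0 with a median of -0.12, and 0 had an unadjusted p under 0.05. Their median was 0.07 between the endocrine-richer libraries and -0.22 between the endocrine-poorer ones, so the sign differed between the pairs. Of 24 nuclear genes of oxidative phosphorylation, 0 had an unadjusted p under 0.05, with a median of -0.02.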
